A study of Mus musculus with 82 samples.

Results

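The surface markers by which mouse hematopoietic stem cells (HSCs) are sorted were followed through the series as 6 genes, chosen by symbol, of the 55376 genes in the count tables: Slamf1, which encodes CD150, Cd48, Kit, Ly6a, which encodes Sca-1, Procr, which encodes EPCR, and Cd34. The series asked how the epigenome and transcriptome of HSCs differ between young mice of 3 to 4 months and old mice of 24 to 26 months, and what follows knockdown of a short variant of Btaf1, a gene for a TATA-binding protein cofactor. Its 30 mRNA libraries fall into 11 groups, namely young HSCs (YHSCs, n = 4), old HSCs (OHSCs, n = 8), cultured HSCs and transplanted HSCs each with shControl, shRNA1 or shRNA2 (n = 2 for each of the 6 groups), and the young progenitors CMP, GMP and MEP (n = 2 each). Of the chromatin data, ATAC-seq, which measures accessibility, was analysed here in 4 YHSC libraries and in OHSC libraries 5 to 8, and H3K27ac in 2 libraries of each age. Further OHSC columns of the ATAC-seq table were not used here.

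The mice were C57BL/6J males. The YHSC RNA came from pooled mice and the OHSC RNA from single mice. The shRNAs of the knockdown groups were carried by virus and aimed at the unique 3' end of the short Btaf1 variant, and the shControl libraries carried a scrambled shRNA. The cultured cells grew with thrombopoietin and stem cell factor, which is the KIT ligand. The transplanted HSCs were recovered from lethally irradiated young female CD45.1 recipients, several of which were pooled per library, and by the study's methods the cells that were transduced for culture and transplantation were OHSCs, an age that the labels do not give. Nothing in the labels says whether 2 libraries of one group came from separate cultures, so p-values there measure the spread between libraries, which may be technical.

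The gates bear on every level below. YHSCs and OHSCs were sorted as Lin- Sca-1+ c-Kit+ CD34- Flk2- CD150+ cells after enrichment on c-Kit, so the products of Slamf1, Kit, Ly6a and Cd34 were used in the sort, and those of Cd48 and Procr were not. Transplanted HSCs were sorted as Lin- Sca-1+ c-Kit+ CD48- CD150+ donor cells, so there Cd48 was used and Cd34 was not. They were also sorted for GFP, which marks cells with the shRNA virus. Cultured cells were purified as HSCs before transduction and sorted for GFP after culture, and no surface marker gate is described for that later sort. A gate acts on protein at the surface and the libraries measure mRNA. No source used here describes the gate of the progenitors. Total counts over genes ran from 20475764 to 42737054 per mRNA library and from 15427933 to 26260337 per ATAC library. Levels are CPM, the counts of a gene scaled to the size of its library, with TMM factors over the 30 mRNA libraries, unless a fold change is given, which comes from an edgeR quasi-likelihood fit of the comparison itself. In bulk RNA, fewer cells that carry an mRNA and less of that mRNA per cell cannot be told apart.

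CD150 and CD48 belong to the SLAM family of immune receptors, and the pair separates HSCs, which are CD150+ CD48-, from multipotent and more restricted progenitors. KIT is the receptor tyrosine kinase for stem cell factor and is carried by stem and progenitor cells alike. Sca-1 is a GPI-anchored Ly6 protein of HSCs and other cells, EPCR is the receptor for protein C and marks HSCs with long-term activity, and CD34 is a sialomucin that adult mouse HSCs lack and their progeny gain. On the mm10 genome, Slamf1 (chromosome 1, 171767127 to 171801184) lies 61869 bases beyond the end of Cd48 (chromosome 1, 171682009 to 171705258), both on the plus strand. Cd34 is also on chromosome 1 (194938819 to 194961279), Kit on chromosome 5 (75574916 to 75656722), Ly6a on the minus strand of chromosome 15 (74994877 to 74998031) and Procr on chromosome 2 (155751117 to 155755471).

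Promoter windows of 250 bases before to 50 after the start, from RefSeq on GRCm38.p6, were found for 5 of the 6 genes, Ly6a being the exception. Those of Slamf1 and Cd48 are printed because their mRNAs differed most between ages, and that of Kit because its start carried the strongest H3K4me3 of the group. The motifs searched on both strands were TATAAA for the TATA box, AGATAA for GATA factors, GGAAGT for ETS factors, TGTGGT for RUNX factors, CCAAT, then GGGCGG for the GC box and CAGCTG for an E-box. Capitals mark their matches. No 2 of these letter strings overlap in the windows printed.
Slamf1, chr1:171766882-171767181, plus strand: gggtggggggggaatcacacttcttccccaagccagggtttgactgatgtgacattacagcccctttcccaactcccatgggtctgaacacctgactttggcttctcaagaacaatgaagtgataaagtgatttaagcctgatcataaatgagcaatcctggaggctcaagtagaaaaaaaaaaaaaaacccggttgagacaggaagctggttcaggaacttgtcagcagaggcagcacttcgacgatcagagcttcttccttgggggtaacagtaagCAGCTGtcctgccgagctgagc
Cd48, chr1:171681742-171682041, plus strand: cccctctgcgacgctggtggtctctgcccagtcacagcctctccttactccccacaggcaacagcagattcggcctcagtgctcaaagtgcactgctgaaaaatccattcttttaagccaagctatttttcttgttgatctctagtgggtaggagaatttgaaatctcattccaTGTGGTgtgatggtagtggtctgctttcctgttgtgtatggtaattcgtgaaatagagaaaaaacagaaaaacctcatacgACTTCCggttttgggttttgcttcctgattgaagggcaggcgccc
Kit, chr5:75574737-75575036, plus strand: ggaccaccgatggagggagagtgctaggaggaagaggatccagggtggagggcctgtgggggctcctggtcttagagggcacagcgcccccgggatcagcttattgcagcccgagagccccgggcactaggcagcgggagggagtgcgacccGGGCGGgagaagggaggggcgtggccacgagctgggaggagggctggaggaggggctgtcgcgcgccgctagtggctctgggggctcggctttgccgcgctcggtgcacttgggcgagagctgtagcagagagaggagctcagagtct
The Kit window held 20 CpG and 69.0% G and C, against a median of 7 CpG and 52.7% over 27025 promoter windows. Slamf1 held 4 CpG and Cd48 held 7. Slamf1 and Procr each had 1 CAGCTG, which 16.1% of all windows hold. Cd48 had TGTGGT at 76 bases before the start and ACTTCC, the reverse complement of GGAAGT, at 5 bases after it, and these motifs are held by 16.9% and 24.1% of windows. Kit had GGGCGG, held by 35.9%. None of the 5 windows held the TATA, GATA or CCAAT letters, which are in 14.2%, 11.4% and 37.9% of windows, and Cd34 held none of the 7 motifs.

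The 6 genes followed different courses from HSCs to progenitors. Kit spanned the narrowest range, from a mean of 686.8 CPM in MEP to 1627 CPM in YHSCs, a 2.37-fold range. Slamf1, Ly6a and Procr had means of 41.5 CPM or more in every HSC group, cultured or not, and of 10.8 CPM or less in the progenitors. Cd48 ran the other way, from 0.627 CPM in OHSCs to 265 CPM in CMP, a 423-fold range. Cd34 was highest in CMP at 1021 CPM and lowest in MEP at 1.29 CPM. Per kilobase of annotated exon, the level in YHSCs was 183 CPM for Kit, 168 for Ly6a, 82.1 for Procr, 22.1 for Cd34, 10.0 for Slamf1 and 3.14 for Cd48.

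**Figure D1:**
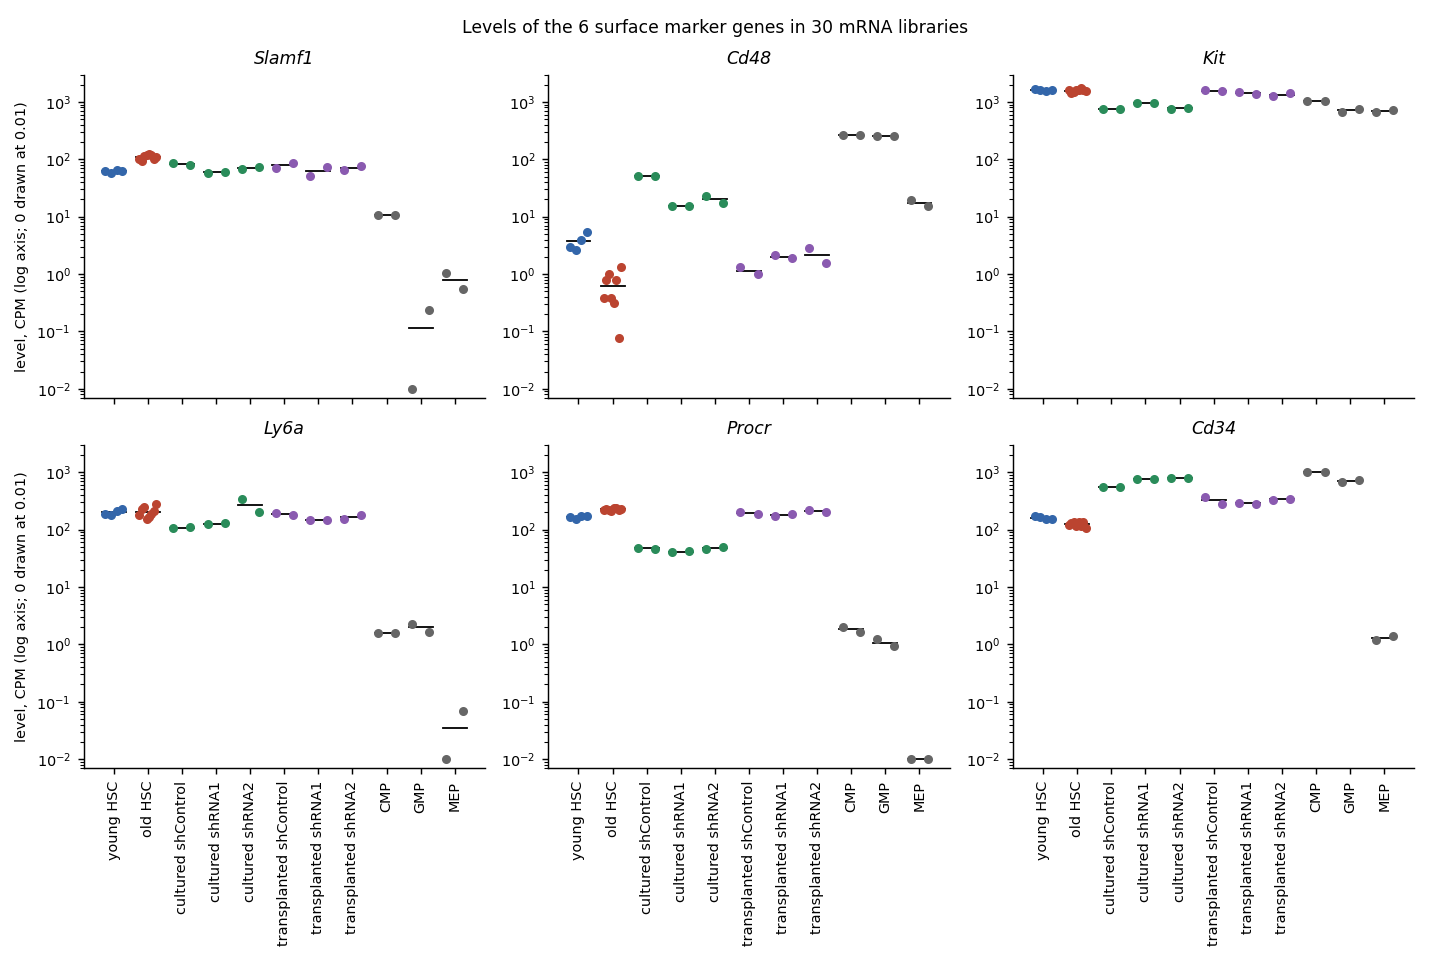
Level of each gene in CPM on a log axis (vertical) in the 11 groups of mRNA libraries (horizontal); points are libraries, black lines group means, and a level of 0 is drawn at 0.01. Kit stays between 655 and 1719 CPM throughout, whereas Procr is at 0 in both MEP libraries and Cd48 is at 1.31 CPM or less in all 8 OHSC libraries.

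Of the 60 pairs of groups that neighbour each other in the order of a gene's means, 36 did not overlap between their libraries, against 38.0% of such pairs over the 13649 genes of at least 5 CPM in a group. Procr and Cd34 had 8 of 10 such pairs apart, Ly6a 7, Cd48 5, and Slamf1 and Kit 4 each. For Slamf1, OHSCs (93.2 to 125 CPM) stood above all other groups, and the 7 groups of YHSCs, cultured and transplanted HSCs, with means of 59.4 to 82.6 CPM, were not separated from one another in that order. For Kit, YHSCs, transplanted HSCs and OHSCs overlapped at the top, and cultured shControl HSCs, GMP and MEP at the bottom. For Cd34, the order was CMP, the cultured knockdown groups, GMP, cultured shControl, the transplanted groups, YHSCs, OHSCs and MEP.

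Between ages, the question was which of the markers change their mRNA in cells sorted by the same gate. Slamf1 rose in OHSCs and Cd48 fell, while Kit and Ly6a differed by less than the spread between libraries. Procr and Cd34 moved apart by less than 1.5-fold, with Procr higher and Cd34 lower in OHSCs. A change was called at a fold above 1.5 and an adjusted p below 0.05, which 2 of the 6 genes passed, and 7.52% of the 21522 genes tested (4.69% higher and 2.83% lower).

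Slamf1 was at 62.0, 58.3, 65.3 and 61.8 CPM in the YHSC libraries and between 93.2 and 125 CPM, median 111, in the OHSC libraries. The highest YHSC library was below the lowest OHSC library. The log2 fold change was 0.84 ± 0.06 (SE; adjusted p = 1.7e-09, edgeR).

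Cd48 was at 2.97, 2.68, 3.90 and 5.39 CPM in YHSCs and between 0.0780 and 1.31 CPM, median 0.581, in OHSCs. All 8 OHSC libraries were below all 4 YHSC libraries, at raw counts of 2 to 34 against 65 to 146. The log2 fold change was -2.54 ± 0.39 (adjusted p = 0.00013, edgeR). Leaving out any library kept it between -2.77 and -2.31.

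Cd48 is also carried by B cells and other lymphocytes, and CD48 is a protein of multipotent and restricted progenitors too. Some markers of both kinds of cell moved with its mRNA. Of 7 B cell markers, 6 were called lower in OHSCs, with a median log2 fold change of -2.22 against -0.0073 over all genes tested. Their summed level was 73.4, 83.4, 133 and 135 CPM in YHSC libraries 1 to 4. In OHSCs the sum was 30.4 to 37.0 CPM, and none of the 7 genes was at 0 in all libraries of either age. The 2 YHSC libraries with the larger sums also had the larger Cd48 levels. In OHSCs, Cd48 was at 0.775 CPM in the library with the lowest sum and at 0.989 CPM in that with the highest. The highest OHSC level of Cd48, 1.31 CPM, stood beside a sum of 35.6 CPM, and the lowest, 0.0780 CPM, beside 33.3 CPM. Without YHSC library 4, whose sum was the highest, the Cd48 fold change was -2.31, and the part of the B cell mRNAs in it was not tested. The lineage antibodies of the sort included B220 and IL-7Ra, which would remove B lineage cells that carry them. Of 6 markers of multipotent and lymphoid primed progenitors, 2 were called lower in OHSCs, at a median log2 fold change of -0.70. Their summed level was 140 to 149 CPM in YHSCs and 103 to 138 CPM in OHSCs, with no overlap, and their part in the Cd48 difference was not tested.

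Procr was at 167, 152, 174 and 174 CPM in YHSCs and 211 to 236 CPM, median 224.5, in OHSCs, with no overlap. The log2 fold change of 0.45 ± 0.04 passed the adjusted p (1.0e-08, edgeR) and was under 1.5-fold. Cd34 was at 174, 166, 152 and 154 CPM in YHSCs and 105 to 135 CPM, median 126, in OHSCs, again with no overlap. Its log2 fold change was -0.36 ± 0.06 (adjusted p = 0.00011, edgeR). Thus 4 of the 6 genes did not overlap between the ages, as did 13.9% of all genes tested (8.32% higher and 5.54% lower).

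Kit was at 1563 to 1698 CPM in YHSCs and 1416 to 1719 CPM in OHSCs, and the ages overlapped. The log2 fold change was -0.03 ± 0.04 (adjusted p = 0.77, edgeR). Ly6a was at 182 to 228 CPM in YHSCs and ranged more widely in OHSCs, from 156 to 277 CPM. The difference was 0.05 ± 0.16 on the log2 scale (adjusted p = 0.89, edgeR).

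**Figure D2:**
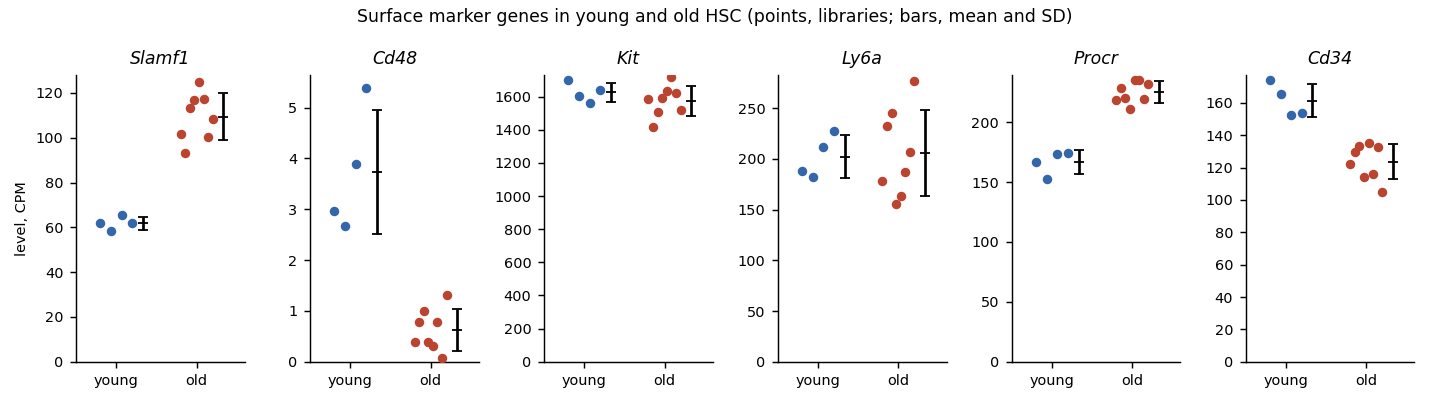
Level of each gene in CPM from 0 (vertical) in 4 YHSC (blue) and 8 OHSC (red) libraries; points are libraries, bars the mean and SD. OHSC libraries lie above YHSC libraries for Slamf1 and Procr, below them for Cd48 and Cd34, and across them for Kit and Ly6a.

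Genes that work with the markers were read by the same rule, which 7.52% of all genes passed. Of 6 other genes of the sort panels tested, Flt3, which encodes Flk2, was lower (log2 fold change -0.90) and Itga2b, the integrin CD41 of megakaryocytes and HSCs, higher (1.24). Of 10 SLAM family members and adaptors, 2 were lower and none higher: Slamf6 (-1.48) and Cd2, a ligand partner of CD48 (-4.27, at a mean of 0.931 CPM in YHSCs). Of 21 genes of KIT signalling, the adaptor Sh2b2 (-0.83) and the kinase subunit Pik3cd (-0.68) were lower. Of 6 Ly6 genes tested, Ly6d, a gene of B lineage cells, was lower (-5.77). Of 9 partners of EPCR, 3 were higher and none lower, namely Pros1 (0.82), the cofactor protein S, Thbd (0.95), which encodes thrombomodulin, and F2 (0.94), which encodes prothrombin. Of 7 genes of CD34 sialomucins and their adaptors, Podxl, a sialomucin of the same family, was higher (0.68). The medians were -0.10, -0.17, -0.07, -0.38, 0.535 and 0.01 for the 6 lists in that order. Megakaryocyte markers summed to 431 to 471 CPM in YHSCs and 796 to 1109 CPM in OHSCs, beside the rise of Slamf1 and of these coagulation genes, and their part in it was not tested. Granulocyte and monocyte markers summed to 125 to 200.1 CPM in YHSCs and 265 to 340.3 CPM in OHSCs, and their part in the differences between ages was not tested. HSC markers summed to 2337 to 2498 CPM in YHSCs and 2231 to 2487 CPM in OHSCs.

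Between ages, accessibility at the 6 genes was called changed in about the share of regions found over the whole genome. The consensus set of 127695 accessible regions had 33 in the gene bodies or in the 10 kb before the starts, of which 14 were at Kit, 5 each at Slamf1 and Cd34, 4 at Cd48, 3 at Ly6a and 2 at Procr. Of these, 22 were above 1.5 CPM in at least 4 libraries and were tested, and 2 were called at a fold above 1.5 and an adjusted p below 0.01. This is 9.09% of those tested, against 13% of all 89245 regions tested, 10.1% being higher and 2.9% lower. Both gained accessibility in OHSCs, and their middle 300 bases are printed with the GATA, ETS, RUNX and E-box motifs above in capitals.
Kit intron, chr5:75623905-75624204, plus strand: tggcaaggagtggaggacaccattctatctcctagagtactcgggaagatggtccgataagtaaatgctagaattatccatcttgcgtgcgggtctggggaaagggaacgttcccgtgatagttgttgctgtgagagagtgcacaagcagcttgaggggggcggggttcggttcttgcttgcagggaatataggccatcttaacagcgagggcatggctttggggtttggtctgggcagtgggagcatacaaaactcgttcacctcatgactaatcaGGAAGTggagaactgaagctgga
Upstream of Cd34, chr1:194934815-194935114, plus strand: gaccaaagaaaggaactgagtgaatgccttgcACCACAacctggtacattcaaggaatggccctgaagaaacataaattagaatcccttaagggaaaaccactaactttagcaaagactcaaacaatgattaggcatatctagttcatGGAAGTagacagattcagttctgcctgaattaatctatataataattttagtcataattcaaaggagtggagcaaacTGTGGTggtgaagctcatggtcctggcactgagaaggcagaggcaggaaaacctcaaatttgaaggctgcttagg
The Kit window held 1 match to GGAAGT, and the Cd34 window 1 to GGAAGT and 2 to TGTGGT. Over the middle 300 bases of 127692 regions, GGAAGT was in 32.7% and TGTGGT in 28.4%.

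The called Kit region (chromosome 5, 75623588 to 75624521) is intronic, 49138 bases after the start. It was at 3.69, 3.86, 2.63 and 2.97 CPM in YHSCs and 4.90, 6.43, 5.31 and 5.19 CPM in OHSCs. The ages did not overlap, at a log2 fold change of 0.75 (adjusted p = 0.00013, edgeR). A further intronic region 7335 bases after the start was at 5.86 to 6.86 CPM in YHSCs and 8.20 to 9.58 CPM in OHSCs, with a log2 fold change of 0.47 (adjusted p = 0.0012, edgeR) that was under 1.5-fold. The region at the Kit start was the most accessible of the 33, at 37.5 to 43.6 CPM in YHSCs and 34.6 to 39.2 CPM in OHSCs. The change was -0.15 (adjusted p = 0.037, edgeR), not past 0.01. Of the other 4 Kit regions tested, that 14706 bases after the start had a log2 fold change of 0.50 (adjusted p = 0.042, edgeR), that at 61821 bases one of -0.15, and those at 17655 and 26682 bases were at 0.04 and -0.04.

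The called region at Cd34 (chromosome 1, 194934786 to 194935144) lies outside the gene, at -3855 bases from the start. It was at 1.23, 2.00, 1.64 and 1.75 CPM in YHSCs and 2.60, 3.50, 2.42 and 3.04 CPM in OHSCs, all above the YHSC libraries. It differed by 0.83 on the log2 scale (adjusted p = 0.0016, edgeR), a value that missed 0.01 without YHSC library 1 (adjusted p = 0.015, edgeR) or OHSC library 6 (adjusted p = 0.012). The mRNA of Cd34 was lower in OHSCs. The Cd34 start, at 17.2 to 19.5 CPM in YHSCs and 15.6 to 20.5 CPM in OHSCs, had a log2 fold change of -0.11 (adjusted p = 0.34, edgeR).

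No region at the genes whose mRNA was called between ages passed. The region at the Cd48 start was at 3.01, 3.26, 2.06 and 2.02 CPM in YHSCs and 2.00, 1.77, 1.60 and 1.33 CPM in OHSCs. Every OHSC library was below every YHSC library, at a log2 fold change of -0.61 (adjusted p = 0.027, edgeR). It also covers the first bases of the noncoding gene A630035G10Rik on the minus strand. The Slamf1 start had a log2 fold change of -0.21 (adjusted p = 0.32, edgeR), and a region at -5044 bases from it one of 0.25 (adjusted p = 0.030, edgeR). The Ly6a start was at 1.60 to 3.17 CPM in YHSCs and 1.56 to 2.54 CPM in OHSCs. The Procr regions, at 218 and -8213 bases from the start, had log2 fold changes of 0.09 and 0.05.

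**Figure D3:**
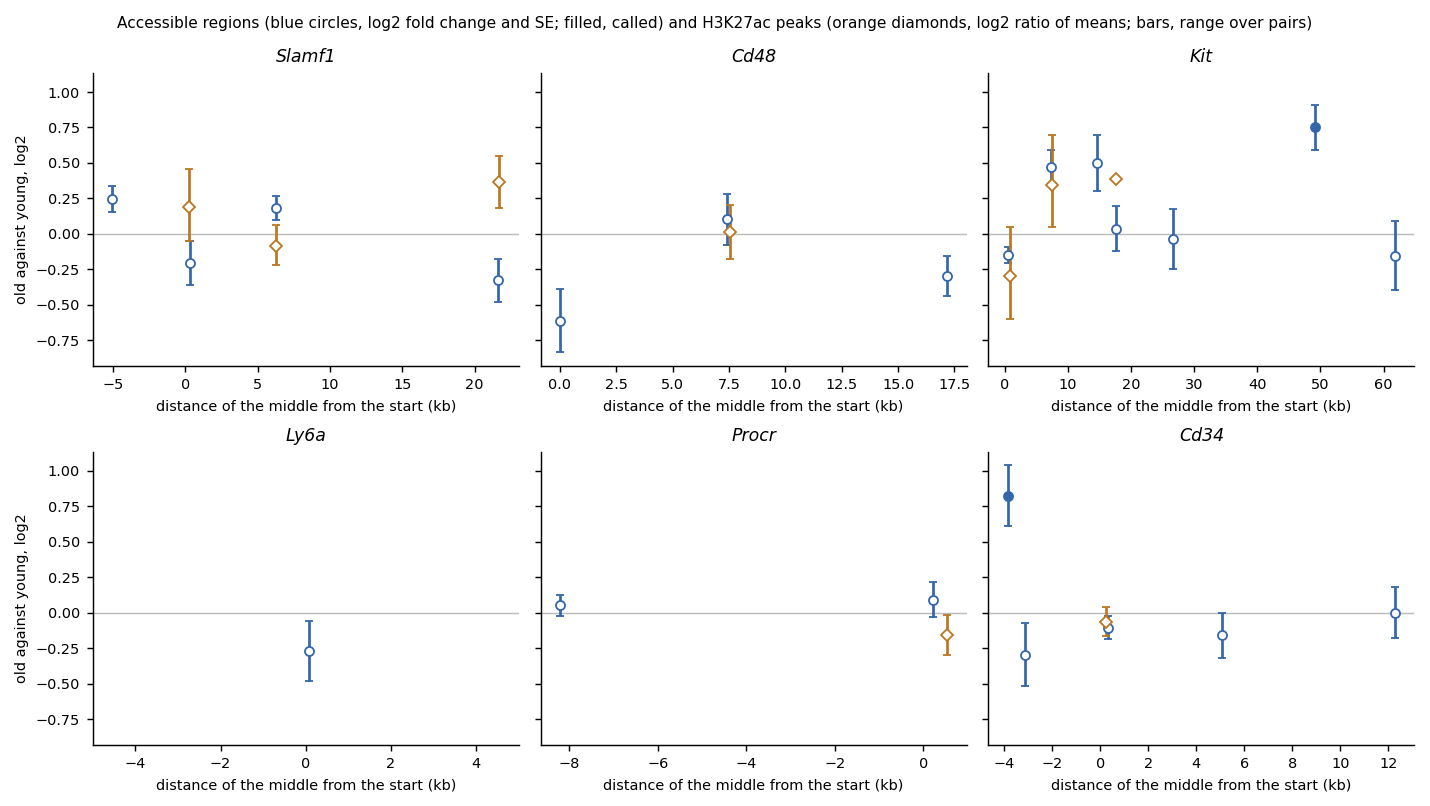
Difference between OHSCs and YHSCs on the log2 scale (vertical) against distance from the start in kb (horizontal) for tested accessible regions (blue circles with SE, filled where called) and H3K27ac peaks (orange diamonds, bars showing the range over the 4 old to young pairs). The 2 filled points, at Kit and Cd34, are 0.75 and 0.83.

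H3K27ac, a mark of active enhancers and promoters, was listed in 9 peaks named for 5 of the genes, with none for Ly6a. No peak reached the rule of a ratio of means above 1.5 with every old to young pair at 1.2 or more, which 11.4% of 39557 peaks reached (9.11% higher and 2.27% lower). Over all peaks 3602 were higher and 898 lower, and with the libraries scaled to the same median signal 2773 and 1437. The ratios at the 5 genes ran from 0.814 to 1.31. The signal was scaled by the authors to an equal number of reads per library. The rule holds no test, and limma on the 2 against 2 libraries, tried as an alternative, gave adjusted p of 0.36 to 0.99 at the 9 peaks. The libraries of the ages did not overlap in 4 of the 9 peaks, or 44.4%, against 47.6% of all peaks. They included the Kit intronic peaks 7510 bases after the start, at 3.16 and 2.15 in YHSCs and 3.49 and 3.27 in OHSCs, and 17595 bases after it, at 1.84 and 1.86 against 2.41 and 2.42. The first of these peaks overlaps the region at 7335 bases whose accessibility was higher in OHSCs. The Slamf1 peak 21708 bases after the start was at 1.65 and 1.52 in YHSCs and 2.22 and 1.87 in OHSCs, while the region of accessibility there had a log2 fold change of -0.33 (adjusted p = 0.096, edgeR). The Procr start was at 3.62 and 3.16 against 3.13 and 2.95.

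In YHSCs, H3K4me3, a mark of active promoters, had 6 peaks named for 4 genes. The peak at the Kit start had a signal of 31.4 ± 3.14 (SD, n = 2), above 99.2% of 33199 peaks. Cd34 followed at 17.5 ± 0.80, Procr at 16.9 ± 0.15 and Slamf1 at 13.0 ± 0.66. No H3K4me3 peak was named for Cd48 or Ly6a. Of the 6 genes, only Cd48 had an H3K27me3 domain named for it, a mark of Polycomb repression, over its start (chromosome 1, 171679001 to 171683999), at a signal of 0.256 and 0.342, above 24.2% of 55820 domains. By position alone, 1 H3K27me3 domain that is not named for Kit also touched the gene body of Kit or the 10000 bases before it. H3K36me3, which follows transcribed gene bodies, covered 98.7% of Kit, 94.5% of Slamf1, 90.3% of Cd34, 79.7% of Procr and 35.6% of Ly6a in the merged domains of both ages, and 0% of Cd48. These positions carry no level.

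In culture, the question was whether knockdown of the short Btaf1 variant changes the markers. Cd48 fell and the others kept within 1.5-fold or did not pass. The rule used here for knockdown, a fold above 1.5 with an unadjusted p below 0.05, was passed by 1 of the 6 genes and by 3.42% of 19763 genes tested, of which 2.45% were higher and 0.972% lower. With an adjusted p in its place, Cd48 still passed, as did 0.906% of genes. Cd48 was at 50.2 and 51.4 CPM with shControl, at 15.2 and 15.5 CPM with shRNA1 and at 22.5 and 17.6 CPM with shRNA2. All 4 knockdown libraries were below both controls, at a log2 fold change of -1.52 ± 0.14 (adjusted p = 0.00042, edgeR).

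Cd34 was at 546 and 542 CPM with shControl and at 754 to 804 CPM in the 4 knockdown libraries. Its log2 fold change of 0.51 ± 0.04 passed the adjusted p (5.3e-06, edgeR) and was under 1.5-fold. Slamf1 was at 84.6 and 80.5 CPM with shControl, at 58.7 and 60.1 CPM with shRNA1 and at 68.2 and 73.7 CPM with shRNA2, with a log2 fold change of -0.34 ± 0.08 (adjusted p = 0.045, edgeR). All 4 knockdown libraries were above both controls for Cd34 and below them for Slamf1.

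Ly6a was at 106 and 110 CPM with shControl, 124 and 128 CPM with shRNA1, and 339 and 200 CPM with shRNA2. The shRNA2 libraries differed more from each other than shRNA1 did from the controls, and the log2 fold change of 0.87 ± 0.54 did not pass (adjusted p = 0.57, edgeR). Kit was at 759 and 745 CPM with shControl, 942 and 940 CPM with shRNA1, and 759 and 798 CPM with shRNA2, with a log2 fold change of 0.19 (adjusted p = 0.52, edgeR). Procr was at 40.1 to 49.2 CPM in all 6 libraries. In 5 of the 6 genes the knockdown libraries did not overlap the controls, as in 25.9% of all genes tested (12.6% higher and 13.2% lower).

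Of the lists, Itgam, the CD11b of the lineage panel, was higher with knockdown (log2 fold change 2.18, adjusted p = 0.0024, edgeR) at a mean of 0.377 CPM with shControl. Thbd was lower (-0.70, adjusted p = 0.0035, edgeR). Kitl, the KIT ligand, was lower by the unadjusted rule (-1.07, adjusted p = 0.16, edgeR). Of the marker lists for cell types and cycling, 4 had sums that did not overlap between control and knockdown. Cycling markers summed to 1298 to 1312 CPM with shControl and 1062 to 1168 CPM with knockdown. Markers of multipotent and lymphoid primed progenitors summed to 52.9 to 54.8 CPM with shControl and 64.3 to 68.7 CPM with knockdown. None of those tested was called, with log2 fold changes of 0.25 for Flt3, 0.32 for Cd27 and -0.31 for Satb1. Granulocyte and monocyte markers summed to 185.5 to 193.4 CPM and 212 to 276 CPM, and endothelial markers to 149.7 to 159.9 CPM and 182 to 191 CPM. The part of these lists in the Cd48 and Cd34 differences was not tested.

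**Figure D4:**
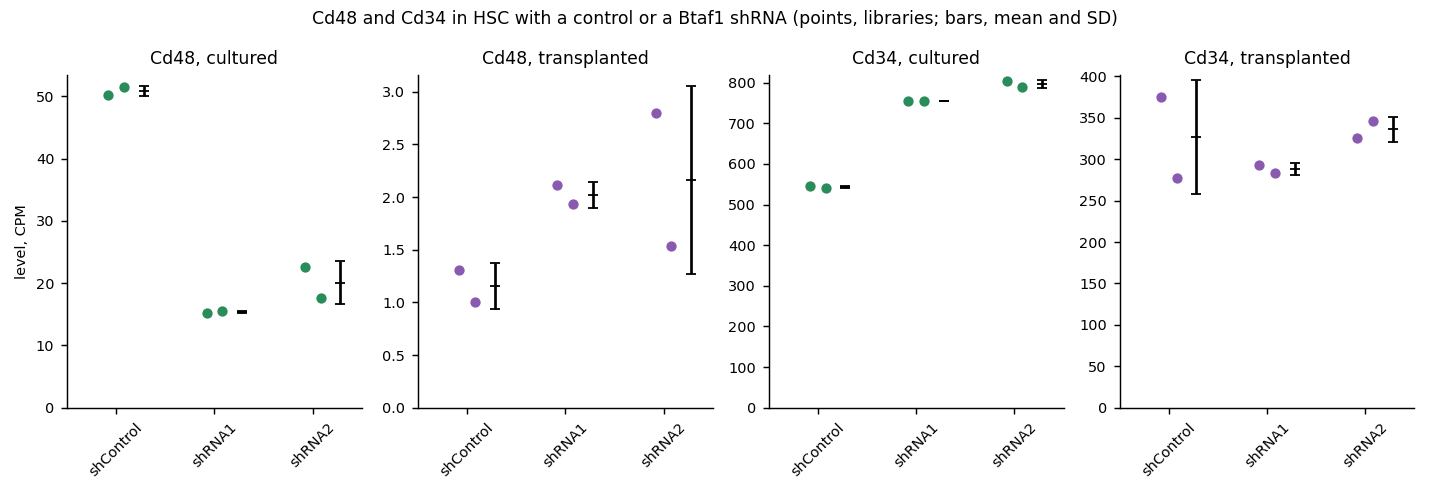
Levels of Cd48 and Cd34 in CPM from 0 (vertical) with shControl, shRNA1 and shRNA2 (horizontal) in cultured and transplanted HSCs; points are libraries, bars the mean and SD of 2. In culture Cd48 is at 22.5 CPM or less in every knockdown library against 50.2 and 51.4 CPM in the controls, and after transplantation it is at 2.80 CPM or less throughout.

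After transplantation, Cd48 was called in the other direction. It was at 1.31 and 1.00 CPM with shControl, 2.11 and 1.93 CPM with shRNA1 and 2.80 and 1.53 CPM with shRNA2, from raw counts of 38 to 112. All 4 knockdown libraries were above both controls. The log2 fold change of 0.85 ± 0.33 passed the unadjusted rule and not the adjusted one (adjusted p = 0.85, edgeR). Without shControl library 2 it was 0.67 and without shRNA2 library 1 it was 0.68, and neither passed the unadjusted rule. That rule called 1 of the 6 genes and 2.24% of 20350 genes tested (1.43% higher and 0.811% lower), while the adjusted p of edgeR called 0 genes of all.

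Kit was at 1608 and 1542 CPM with shControl and 1282 to 1469 CPM with knockdown, and Ly6a at 192 and 182 CPM with shControl and 144 to 178 CPM with knockdown. Both were lower by less than 1.5-fold, at log2 fold changes of -0.20 and -0.27 (adjusted p = 0.85 for each, edgeR). Slamf1, Procr and Cd34 overlapped between control and knockdown. Cd34 differed between the 2 shControl libraries, at 375 and 278 CPM, by more than the knockdown libraries did among themselves, at 283 to 347 CPM. In 3 of the 6 genes the groups did not overlap, as in 14.7% of genes tested (7.77% higher and 6.92% lower). Of the lists, Slamf6 (2.43) and Ly6a2 (1.66) were higher by the unadjusted rule, with adjusted p of 0.88 and 0.85 (edgeR), and no list gene was lower.

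The difference between the 2 knockdown effects was tested in 1 fit of the 12 libraries. It passed an adjusted p of 0.05 for Cd48 alone of the 6 genes, and for 0.21% of 21443 genes tested (0.103% higher and 0.107% lower). The Cd48 effect was 2.37 ± 0.31 higher on the log2 scale after transplantation than in culture (adjusted p = 0.010, edgeR). Without either cultured shControl library the adjusted p was 0.061 or 0.077 (edgeR). For Cd34 the difference was -0.58 (adjusted p = 0.16, edgeR), which passed in DESeq2 (0.013) and without transplanted shControl library 2 (0.017, edgeR). Ly6a differed by -1.14 (adjusted p = 0.60, edgeR). The gate, which removed CD48+ cells only from the transplanted libraries, and the experiment cannot be told apart.

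The 2 kinds of control HSCs themselves differed widely. Between transplanted and cultured shControl libraries, 5 of the 6 genes were called at a fold above 1.5 and an adjusted p below 0.05, as were 27.8% of 19518 genes (15.2% higher and 12.6% lower). Cd48 fell by 5.45 on the log2 scale, from 50.2 and 51.4 CPM to 1.31 and 1.00 CPM. Procr was higher by 2.04, from 47.7 and 46.3 CPM to 201 and 186 CPM, Kit by 1.06 and Ly6a by 0.78. Cd34 fell by 0.74 (adjusted p = 0.014, edgeR), and was no longer called without either cultured control (adjusted p = 0.11) or without transplanted shControl library 2 (-0.54). Slamf1 was at 84.6 and 80.5 CPM in culture and 71.7 and 86.0 CPM after transplantation, a log2 difference of -0.07 (adjusted p = 0.53, edgeR).

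The sums of every marker list for cell types and cycling but that of T cells did not overlap between these controls. Cycling markers summed to 1298 to 1312 CPM in the cultured controls and 299 to 425 CPM in the transplanted ones, and HSC markers to 1265 to 1301 CPM and 1592 to 1832 CPM. Megakaryocyte markers summed to 1391 to 1419 CPM in the cultured controls and 451 to 633 CPM in the transplanted ones. Markers of multipotent and lymphoid primed cells summed to 52.9 to 54.8 CPM and 150.1 to 176 CPM. Those of mast cells and basophils summed to 29.3 to 36.2 CPM and 6.98 to 13.0 CPM. Of the mast cell and basophil markers, Gzmb was called lower (log2 fold change -10.1) and Cpa3 higher (1.96), and Ms4a2 was not called (-0.17). Erythroid markers summed to 664 to 670 CPM in the cultured controls and 1280 to 1710 CPM in the transplanted ones. Of these, Car2 was called higher (log2 fold change 1.44) and Epor (-1.30) and Hbb-bt (-2.14) lower, and Gata1, Klf1 and Hba-a1 were not called. B cell markers summed to 17.28 to 17.95 CPM and 27.1 to 28.4 CPM. Granulocyte and monocyte markers summed to 185.5 to 193.4 CPM and 193.9 to 324 CPM, and endothelial markers to 149.7 to 159.9 CPM and 163.9 to 178.7 CPM. The part of these marker lists in these differences was not tested, and culture, gate and experiment cannot be told apart. Among partners, Podxl fell by 3.45 and the SLAM member Slamf9 by 1.95 on the log2 scale, whereas Ly9 and Slamf8, also SLAM members, were higher by 3.14 and 4.58.

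Among the progenitors, the question was how the markers divide cells that leave the HSC state. CMP, GMP and MEP give rise to myeloid cells at large, to granulocytes and monocytes, and to erythroid cells and megakaryocytes. Granulocyte and monocyte markers were highest in GMP, at 72800 to 73820 CPM, and erythroid markers in MEP, at 15450 to 16170 CPM. Megakaryocyte markers were low in MEP, at 70.5 to 87.0 CPM, against 703 to 707 CPM in CMP. All 6 genes were lower in MEP than in CMP, where 46.7% of 18234 genes were called, 17.5% higher and 29.2% lower. GMP differed from CMP in 1 gene, against 16.7% of genes called (6.24% higher and 10.5% lower). MEP differed from GMP in 5, against 43.7% (16.6% higher and 27.2% lower).

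Cd34 was at 1019 and 1024 CPM in CMP, 687 and 736 CPM in GMP and 1.18 and 1.40 CPM in MEP. Its log2 fold change was -9.64 ± 0.08 in MEP against CMP (adjusted p = 1.1e-16, edgeR) and -0.49 in GMP against CMP, under 1.5-fold. Cd48 was at 263 and 267 CPM in CMP, 259 and 251 CPM in GMP and 19.4 and 15.4 CPM in MEP, with log2 fold changes of -3.94 for MEP and -0.02 for GMP, both against CMP. The difference between CMP and GMP did not pass (adjusted p = 0.86, edgeR). Every CMP and GMP library was at 250.7 CPM or more, against 51.4 CPM at most in an HSC library.

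Slamf1 was at 10.7 and 10.8 CPM in CMP, 0 and 0.232 CPM in GMP and 1.04 and 0.559 CPM in MEP. From 6 reads in GMP against 688 in CMP, the ratio was 96.1 with a 95% counting interval of 43.9 to 263, which covers counting error only. It was the 1 gene called between GMP and CMP (adjusted p = 3.2e-06, edgeR), and the 1 gene of the 6 higher in MEP than in GMP (adjusted p = 0.0053, edgeR). Kit was at 1031 and 1022 CPM in CMP, 674 and 760 CPM in GMP and 655 and 719 CPM in MEP. Its log2 fold change of -0.59 in MEP against CMP was just over 1.5-fold and went under it, to -0.54, without MEP library 1.

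Ly6a and Procr were at 2.30 CPM or less in all progenitor libraries. Ly6a was at 1.56 and 1.60 CPM in CMP, 2.30 and 1.67 CPM in GMP, and had 0 and 2 reads in MEP, so that CMP was 45.3-fold higher than MEP with a counting interval of 12.2 to 379. Procr was at 2.02 and 1.63 CPM in CMP and 1.22 and 0.930 CPM in GMP, and had no read in either MEP library. Against the limit that 3 reads over the group would give, CMP was at least 35-fold higher and GMP at least 20.6-fold higher than MEP. Ly6a2, another Ly6 gene, had means of 5.20 CPM in CMP and 59.0 CPM in GMP, and reads shared between near-identical Ly6 genes could not be separated here.

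Of the SLAM list, 7 of 8 genes tested were lower in MEP than in CMP and none higher, at a median log2 fold change of -3.81 against -0.07 over all genes. Of all genes tested 29.2% were lower and 17.5% higher, and the counts of the lists that follow stand beside these shares. Of 10 partners of EPCR, 8 were lower and 1, F2, higher, and of 7 CD34 sialomucins and adaptors 5 were lower. Of 20 genes of KIT signalling, 12 were lower and 1 higher, at a median of -0.93. Of 8 Ly6 genes, 4 were lower and Cd59a, a complement regulator, was higher (0.98). From CMP to MEP, Emcn fell from a mean of 2.45 CPM to 0 and F2 rose from 0.0627 to 2.80 CPM. Between CMP and GMP the largest falls were in F2r, the thrombin receptor, from 269 to 4.12 CPM, and S1pr1, from 34.0 to 0.877 CPM, while Ly6a2 rose as above and F3 from 0.109 to 1.02 CPM. Between GMP and MEP, Ly6c2 fell from 1337 to 0.748 CPM and Ly6c1 from 24.0 to 0.0175 CPM, and F2r rose from 4.12 to 43.0 CPM. F2 was at 0 in GMP.

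YHSCs against each progenitor set these levels in one fit, in which batch, gate and cell type cannot be told apart. All 6 genes were called against CMP, GMP and MEP, as were 64.3%, 71.3% and 77.2% of 25716 genes. The shares called higher in YHSCs were 42.8%, 47.3% and 52.7%, and those called lower 21.6%, 24% and 24.5%. The median over all genes was itself 0.49, 0.70 and 1.11 higher in YHSCs on the log2 scale. Kit was higher in YHSCs by 0.68, 1.18 and 1.27 against CMP, GMP and MEP, above each median. Slamf1 was higher by 2.54 against CMP, Ly6a by 7.01 and Procr by 6.52 (SE 0.15, 0.15 and 0.12). The log2 difference of Cd48 was -6.13 against CMP, -6.08 against GMP and -2.19 against MEP. That of Cd34 was -2.65 against CMP, -2.14 against GMP and 6.99 against MEP. Of the list genes called, several rest on a progenitor group without reads, for which no fold is given. Cd2 and Cd3g were at means of 0.931 and 0.609 CPM in YHSCs and at 0 in CMP. Podxl and F2 were at 30.4 and 2.21 CPM in YHSCs and at 0 in GMP, and Emcn and Slamf8 at 32.3 and 8.14 CPM in YHSCs and at 0 in MEP. In the other direction, Ly6c2 was at 0.686 CPM in YHSCs, 151 CPM in CMP and 1337 CPM in GMP, and the adaptor Shc1 at 137 CPM in YHSCs and 266.5 CPM in MEP.

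Other genes followed the courses of the markers over the 11 group means of log2 CPM. Among 13649 genes of at least 5 CPM in a group, the 3 with the highest Pearson r were Gm13032, Prkcq and Slc35f2 for Slamf1 (r of 0.994 to 0.990), and Ado, Aldh16a1 and Ass1 for Cd48 (0.978 to 0.970). They were Rrm2b, Hnrnph3 and Card14 for Kit (0.977 to 0.973), Igsf9, Nudt16 and Ift43 for Ly6a (0.994 to 0.993), and Triqk, Chrnb1 and Cadps2 for Procr (0.997 to 0.996). For Cd34 they were Gm16897, Tec and Sh2d5 (0.997 to 0.994). The exons of Gm16897 overlap those of Cd34 on the opposite strand, so without strand their reads cannot be told apart. Among the members, Ly6a and Procr were most alike (r = 0.973) and Cd48 and Kit least (r = -0.783). The 11 points share batches and kits, and these correlations are descriptions.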

How the data were processed

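mRNA, accessibility and histone marks were taken from the files the authors deposited. The deposited mRNA values are raw counts per gene, which the authors made by trimming with trim galore and cutadapt, aligning to mm10 with STAR and counting with featureCounts on GENCODE M22. The labels and the study's methods name different library kits for the HSC RNA, but each names the same kit for YHSCs and OHSCs. Rows for 92 spike-in RNAs in 12 libraries were left out of totals and tests. The deposited ATAC values are counts per consensus region after alignment with BWA. The deposited ChIP-seq values are signal per merged peak, scaled by the authors to an equal read number per library. No source used here says how signal was summed within a peak. The annotated tables also hold the authors' own fold changes and log2 ratios, which were not used. A further 8 per-sample columns of old HSCs, from ATAC-seq and from H3K4me3 and H3K27me3, matched no sample analysed here and were not used. The H3K36me3 positions were deposited by the authors as merged domains with no value.

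The members and gene lists were chosen with earlier results of these data known. Genes were named as follows: the 6 members in every comparison, list genes called between ages, the 2 largest called changes each way elsewhere, 3 genes of highest Pearson correlation per member, and for regions all at a member up to 10, otherwise the largest changes and the one nearest the start. A few values that the rule would name are not reported here. Tests used edgeR 4.0.16 (glmQLFit robust, TMM, filterByExpr or, for regions, above 1.5 CPM in 4 libraries) in R 4.3.3, with Benjamini-Hochberg adjustment over all genes or regions. SE is the log2 fold change over the square root of F. The call rules were a fold of 1.5 with an adjusted p of 0.05 (0.01 for regions), or an unadjusted p for knockdown. DESeq2 1.42.0, its size factors, no filter, a replicate block, limma 3.58.1 on log2(signal + 0.5) and leaving out each library were tried. Scripts were tested on simulated counts. Chi-square per degree of freedom between libraries of a group was at least 4.42, so no library was counted as a duplicate. Intervals and floors cover counting error only. Gene places are from GENCODE M21.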

Additional observations from a re-analysis of the deposited data

Results flagged for a closer look

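The knockdown effect on Cd48 differed between transplanted and cultured HSCs, with a difference of 2.37 on the log2 scale (adjusted p = 0.010, edgeR interaction). All 4 knockdown libraries were below both controls in culture and above both after transplantation. The transplanted levels rest on 38 to 112 raw counts, and a gate against CD48 was applied to the transplanted libraries only. Its part in the difference was not tested.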

How the results depend on the processing

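The number of the 6 genes called between ages was 2 under every alternative with a fold threshold and 4 with no threshold on fold change, which added Procr and Cd34. For the cultured knockdown it was 2 with shRNA2 alone, where Ly6a was added. For the transplanted knockdown it was 0 with an adjusted p and 0 with shRNA1 alone, and 0 to 1 when each library was left out. For the difference of knockdown effects it was 2 with DESeq2 and 0 to 2 without single libraries. Accessible regions called numbered 1 to 2 without single libraries, and H3K27ac peaks 1 at a ratio above 1.2 and 0 to 1 without single libraries, where dropping YHSC library 1 called the Kit peak 7510 bases after the start. The cause was not tested in any of these. Over all genes, calls numbered 4434 against 1618 between ages with no threshold on fold change. With no filter on low counts they numbered 1066 against 676 in culture and 728 against 455 after transplantation, where shRNA2 alone gave 768. For the difference of knockdown effects, DESeq2 called 308, no filter 94 and the replicate block 13, against 45, and leaving out single libraries gave 1 to 117. H3K27ac peaks called numbered 4500, 1340 at a ratio above 2, 911 by limma and 8152 without YHSC library 1.

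Signs turned only for values under their threshold. Procr went to 0.00030 in culture with shRNA2 alone and to -0.11 after transplantation with shRNA1 alone, and Cd34 to 0.037 after transplantation with shRNA2 alone. Leaving out single libraries gave -0.020 to 0.105 for Ly6a between ages, -0.052 to 0.067 for Procr and -0.27 to 0.17 for Cd34 after transplantation, -0.018 to 0.24 for Slamf1 in the difference of effects, -0.049 to 0.0030 for Cd48 in GMP against CMP, and -0.21 to 0.052 for Slamf1 in transplanted against cultured controls.

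With the replicate number as a block, 2 genes were called between ages, 1 in culture, 1 after transplantation, 1 in the difference of effects, 12 of 18 among progenitors and 5 in transplanted against cultured controls, so no count of the 6 genes changed. Same-numbered YHSC and OHSC libraries had deviations correlated at -0.132 to 0.0763, so the number was not taken as a pairing. At these depths Cd48 in OHSCs and Slamf1, Ly6a and Procr in GMP or MEP rest on few reads.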
